A study of Mus musculus with 4 samples.

Results

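The genes described here mark the stem cell zone of the intestinal crypt or are well-known targets of Wnt signalling in gut epithelium, and their transcripts were measured in small intestine of HNF4 null and control mice. The 10 genes are the stem cell markers Lgr5, Ascl2 and Prom1, the Wnt targets Axin2, Sox9 and Myc, and the crypt surface proteins Cd44, Ephb2, Ephb3 and Cd24a. Every probe set, a group of array probes read as 1 value, was taken where the platform annotation names exactly 1 of these genes. That gave 16 probe sets for 9 genes, of 22626 probe sets apart from controls. No probe set of the annotation used named Ephb2 alone, so that gene was not analysed here. Cd24a read 1.54-fold to 1.65-fold higher in null than in control mice, on all 3 of its probe sets and in both sexes, without passing the adjusted threshold. For the other members bright enough to test, the genotype groups overlapped.

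The study hybridised total RNA from 4 mice aged 1 month, 1 array per animal. The null male and the null female were HNF4 loxP/- with villin cre. The control female was HNF4 loxP/+ with villin cre, and the control male was HNF4 loxP/- without Cre. All 4 animals thus carried a loxP allele, and 1 of the controls shared the minus allele of the null animals while the other shared their Cre. The villin promoter drives Cre in intestinal epithelium, whereas the labelled tissue is small intestine as a whole, with no segment or layer named. Nothing in the labels says which HNF4 paralogue was removed. The brightest Hnf4a probe set read 1136 in the null male and 1025 in the null female against 1141 and 731 in the control female and male, so the groups overlapped. Its null minus control difference was 0.23 overall but −0.16 within females, and those of the Hnf4g probe sets were 0.12 and 0.16 (log2 scale, adjusted p of 1 in limma). Whether any HNF4 probe lies in deleted sequence is not given in the sources used here.

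In the crypt, Wnt ligands bind Frizzled and LRP receptors, and beta-catenin then escapes the destruction complex and works with TCF factors on target genes. R-spondins, which bind LGR receptors, prolong that signal by sparing the Wnt receptors from turnover. Stem cells at the crypt base depend on it. EphB receptors, themselves targets, keep crypt cells apart from villus cells that carry ephrin-B.

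Promoter sequence was available for 6 of the 10 genes, in 7 windows of 250 bases before a start site (RefSeq, GRCm38.p6): Ascl2, Axin2, Cd44, Ephb2, Ephb3 and, with 2 start sites, Prom1. Cd24a, Lgr5, Myc and Sox9 had no entry. A search on both strands for CTTTG, the core shared by TCF binding sites, found 1 match among the 7 windows, in Cd44, against 48.6% of all 32851 windows of the same length. The longer CTTTGA, which contains the first motif, was in 0 of the 7 and in 13.8% of all. These counts describe letters in short windows. Ascl2 and Cd44 are printed since their windows lie outside the annotated gene, apart from 4 bases of Cd44. Ascl2 encodes the transcription factor that maintains crypt base stem cells, and its window is at chr7:142969265-142969514 on the minus strand. It was 67.6% G or C, with 19 CG pairs. Cd44 encodes the hyaluronan receptor, and its window is at chr2:102901666-102901915 on the minus strand. It was 56.4% G or C, with 5 CG pairs. Both read 5′ to 3′ along the gene, and capitals mark the motif, here in its reverse complement CAAAG, which begins 163 bases before the start.
Ascl2: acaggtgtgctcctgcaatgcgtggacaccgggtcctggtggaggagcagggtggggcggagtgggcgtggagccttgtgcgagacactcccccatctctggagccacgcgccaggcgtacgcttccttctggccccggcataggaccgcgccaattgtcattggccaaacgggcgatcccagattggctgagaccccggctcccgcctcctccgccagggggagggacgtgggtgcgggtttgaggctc
Cd44: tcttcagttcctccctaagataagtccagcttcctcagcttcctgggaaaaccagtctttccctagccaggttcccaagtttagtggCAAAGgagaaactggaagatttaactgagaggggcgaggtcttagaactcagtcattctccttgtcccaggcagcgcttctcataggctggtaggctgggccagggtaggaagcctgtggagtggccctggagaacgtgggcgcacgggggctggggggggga

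Intensities are given as deposited, in linear units. Differences are null minus control on the scale of log2(normalized intensity + 16), which understates the change of dim probe sets. They were tested with limma over all 15838 probe sets left after the dimmest 30% by mean were removed, with adjusted p-values from the Benjamini-Hochberg method over all of these and a threshold of 0.05. Array medians were 43.2 to 53.3, and the null male had the lowest median and the lowest correlations with the other arrays (0.927 to 0.946). Of all absorptive enterocyte markers measured, 10 of 10 read above the dim limit on at least 1 array, as did 10 of 10 B cell, 9 of 10 smooth muscle and 7 of 8 fibroblast markers, so the RNA held transcripts of epithelium and of the wall. The dim limit is 34.4, the highest intensity that Y-linked probe sets brighter in both males gave in a female. Values at or under it are not shown to lie above background.

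No member probe set passed the threshold in limma: 0 of 13 tested, for 8 genes, against 0.0126% of all probe sets tested. At an unadjusted p under 0.05 there were 3 of 13, all of them Cd24a, against 3.03% of all. The same 0 of 13 resulted with sex as a block, where 0.183% of all probe sets passed. The 3 probe sets removed as dim were both Sox9 probe sets and 1 of the 3 for Ascl2. Over all 16, the null arrays lay above both control arrays in 4 (the 3 of Cd24a and a dim 1 of Sox9) and below both in 1 (a dim 1 of Ascl2), against 14.1% and 15.9% of all probe sets. In the tissue as a whole, fewer cells of a type and less RNA per cell cannot be told apart.

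**Figure D1:**
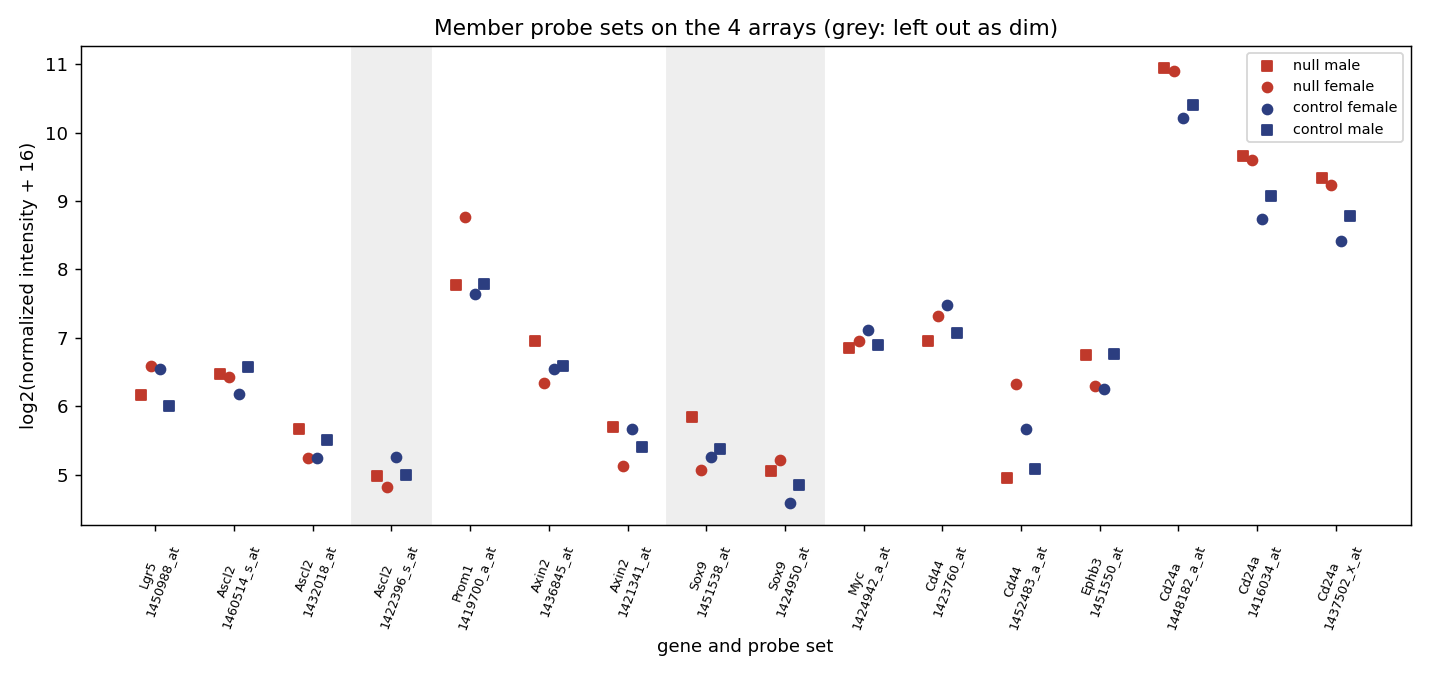
Normalized level of each of the 16 member probe sets, as log2(normalized intensity + 16) on the y axis, with 1 point per array, red for null and blue for control, squares for males and circles for females. The red points of the 3 Cd24a probe sets lie above both blue points, Prom1 is high in the null female alone, and most other sets of points overlap between the groups; grey columns are the 3 probe sets removed as dim.

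Among the stem cell markers, Lgr5, the R-spondin receptor that defines cycling crypt base stem cells, was close to equal in the group means. Its probe set 1450988_at read 49.2 in the null male and 86.0 in the null female, against 78.7 in the control female and 48.5 in the control male. The 2 female arrays were thus high and the 2 male arrays low, and the genotype groups overlapped. The difference was 0.11 (SE 0.29, 95% interval −0.58 to 0.79, adjusted p of 1 in limma). In fold terms that interval runs from 0.67 to 1.73, and a difference within that range cannot be told from none with 2 animals per group.

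Ascl2 gave 65.0 and 75.3 in the null male and female against 58.2 and 80.0 in the control female and male on its brightest probe set, 1460514_s_at. Both null values lay between those of the controls. The difference was 0.07 (SE 0.24, 95% interval −0.50 to 0.64, adjusted p of 1 in limma). Its other probe sets were at or under the dim limit on all 4 arrays, with intensities of 22.2 to 30.4 on 1432018_at (difference 0.08) and 12.1 to 22.9 on 1422396_s_at (difference −0.22, not tested), and are not shown to lie above background.

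Prom1, the membrane protein prominin found on crypt progenitors and other epithelial cells, differed through 1 animal. Its single probe set 1419700_a_at read 422 in the null female, against 187 in the null male, 190 in the control female (189.6 before rounding) and 206 in the control male. The null female was high, and the null male was the lowest of the 4 in deposited intensity. The difference of 0.55 (SE 0.33, 95% interval −0.24 to 1.34, adjusted p of 1 in limma) came from −0.016 within males and 1.11 within females, and it was 0.06 without the null female. The same animal had the highest summed intensity of fibroblast markers (1988 over 8 genes, against 1018 in the null male and 1284 to 1357 in control mice), of smooth muscle markers (3423 over 10 genes, against 2562 to 2676 on the other arrays) and of endothelial markers (537.9 over 7 genes, against 356.1 to 406). Single genes varied: smooth muscle Acta2 and Mylk, fibroblast Fbln1, Pdgfra and Fap, and endothelial Egfl7, Tek and Cdh5 were highest on another array. The other genes of these lists were highest in the null female. Some further lists also had their highest sum in this animal, and others did not. Among the former were proliferation genes (3701, against 2864 to 3360) and other Wnt target genes (4305, against 2882 to 2959). The fibroblast gene Fap, the smooth muscle gene Synpo2 and the endothelial gene Cd34 did not exceed the dim limit on any array. The part of these cells in the Prom1 value was not tested.

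Axin2, a scaffold of the destruction complex induced by Wnt signals as negative feedback, is commonly used as a readout of the pathway. Its brighter probe set 1436845_at read 97.6 in the null male and 70.7 in the null female against 79.4 and 80.7 in the control female and male. The null animals bracketed the controls, which were nearly equal. The difference was 0.08 (SE 0.27, 95% interval −0.56 to 0.73, adjusted p of 1 in limma). The dimmer probe set 1421341_at, above the dim limit in the control female alone at 35.7, gave −0.12 (SE 0.30). In both probe sets the male difference was above 0 (0.37 and 0.29) and the female one below (−0.20 and −0.54).

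Myc, a transcription factor of growth and proliferation, read 90.0 and 116 in the null male and female against 126 and 104 in the control female and male. The groups overlapped. The difference was −0.10 (SE 0.22, 95% interval −0.62 to 0.42, adjusted p of 1 in limma), the smallest standard error among the members other than Cd24a. Sox9, a transcription factor of crypt progenitors and Paneth cells, was too dim to test. It gave 36.1 and 20.4 in null mice versus 22.7 and 25.8 in control mice on 1451538_at, and 13.6 and 24.2 against 8.50 and 13.4 on 1424950_at. After normalization both null arrays exceeded both controls on the second of these, by 0.41 on average. Apart from the 36.1 in the null male, all of these values lie under the dim limit and are not shown to measure Sox9.

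**Figure D2:**
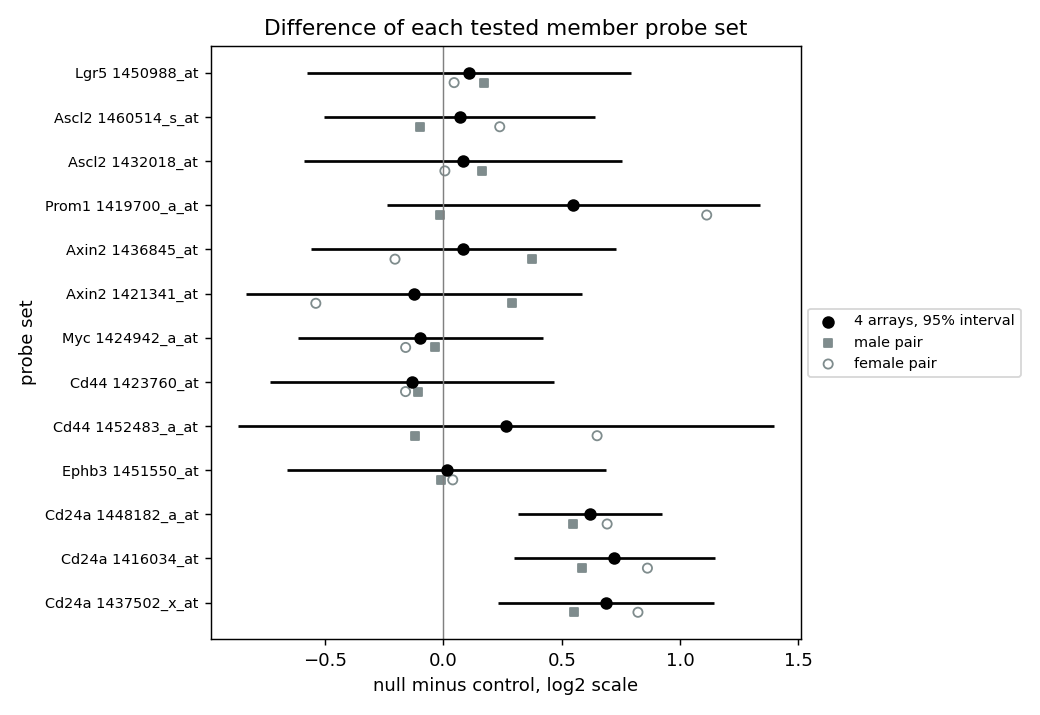
Null minus control difference (x axis, log2 scale) of each of the 13 tested member probe sets (y axis), as a black point with its 95% interval from limma, with grey squares for the male pair and open circles for the female pair. The 3 intervals of Cd24a lie above 0, at 0.62, 0.69 and 0.72, and the other 10 include 0.

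Of the crypt surface proteins, Cd44 read 97.8 and 153 in the null male and female against 167 and 119 in the control female and male on its brighter probe set, 1423760_at. The female arrays were the 2 highest, and the groups overlapped. The difference was −0.13 (SE 0.25, 95% interval −0.73 to 0.47, adjusted p of 1 in limma). The second probe set, 1452483_a_at, read 11.4 and 69.1 against 35.6 and 18.2, with only the 2 female arrays above the dim limit. Its difference of 0.26 had the widest interval of all members, −0.87 to 1.40. Cd44 is also abundant on lymphocytes. The B cell genes Ms4a1 (82.2 and 200.4 in null mice, 173 and 23.6 in control mice) and Cd79b (88.3 and 201, 192 and 28.5) were likewise highest on the 2 female arrays. So were Cd79a, Cd37, Pou2af1, Blk, Fcer2a and Cr2, the last above the dim limit in the control female alone. The rest of the B cell and plasma cell list did not follow that order. Cd22 was lowest in the null female (29.4, against 116 to 135 on the other arrays). Jchain was highest in the males (2944 and 3243, against 1480 and 1395 in the null and control female). The whole list, 7 of whose 10 measured genes were higher in null mice, summed to 3528 and 2436 in the null male and female and to 2485 and 3586 in the control female and male, so its sum was lower on both female arrays. Jchain alone made up most of that sum on every array, so the sum does not describe the other genes of the list. No gene of the list was under the dim limit throughout. The 9 T cell genes measured summed to 864 and 755 in null mice versus 1282 and 1135 in control mice, with Cd2 and Cd3e under the dim limit on every array. The part of lymphocytes in the Cd44 values was not tested.

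Ephb3, a receptor tyrosine kinase that positions Paneth cells at the crypt base, read 82.1 and 67.4 in the null male and female against 61.9 and 92.9 in the control female and male. Here the male arrays were the higher ones in both groups. The difference was 0.014 (SE 0.28, 95% interval −0.66 to 0.69, adjusted p of 1 in limma), and it was −0.025 on the deposited values without further normalization. Of the other Eph receptors and ephrins measured, 7 of 17 genes were higher and 10 lower, with a median difference of −0.18 (−0.06 without the control female, −0.09 without the control male and −0.11 without the null female), and 0 of 12 tested passed in limma, with 0 at an unadjusted p under 0.05. Efnb1, a villus-side ligand of EphB receptors, differed by 0.25 (SE 0.20) on its brightest probe set and by 0.16 and 0.23 on the other 2. Epha4 differed by −0.42 (SE 0.27), with only the control male above the dim limit at 43.0.

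Cd24a, a small glycoprotein anchored to the cell surface by lipid, was the one member whose null and control arrays separated on every probe set. The brightest, 1448182_a_at, read 1978 in the null male and 1806 in the null female against 1159 in the control female and 1366 in the control male. The second, 1416034_at, read 781 and 759 against 426 and 524, and the third, 1437502_x_at, read 614 and 583 against 336 and 424. On each, both null animals were above both controls and lay closer to each other than the controls did, with a gap of 0.05 to 0.10 on the log2 scale between the null animals and of 0.19 to 0.37 between the controls.

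The null minus control differences of Cd24a were 0.62 (SE 0.13, 95% interval 0.32 to 0.93), 0.72 (SE 0.18, 0.30 to 1.15) and 0.69 (SE 0.19, 0.23 to 1.15) in that order, or 1.54-fold, 1.65-fold and 1.61-fold. None passed: each had an adjusted p of 1 in limma. Unadjusted p-values in limma, 0.0021, 0.0053 and 0.0097, ranked 20, 47 and 81 among all 15838 tested. With sex as a block the adjusted p-values in limma were 0.11, 0.186 and 0.27. The 3 probe sets read 1 transcript, so they are repeated readings of the same 4 RNA samples and not further animals. The suffix of the third marks probes that can also bind other sequences. Within males the differences were 0.55 to 0.58 and within females 0.69 to 0.86.

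**Figure D3:**
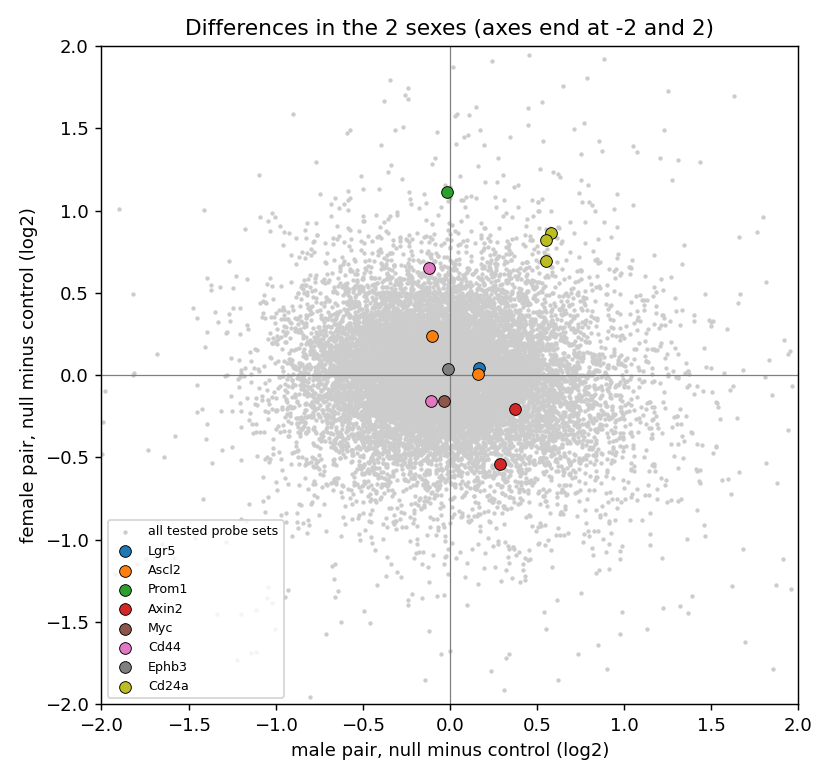
Null minus control difference within females (y axis, log2) against that within males (x axis, log2), grey for all tested probe sets and coloured by gene for the members. The 3 Cd24a probe sets lie at 0.55 to 0.58 and 0.69 to 0.86, whereas Prom1 lies at −0.016 and 1.11 and both Axin2 probe sets are above 0 within males and below 0 within females.

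**Figure D4:**
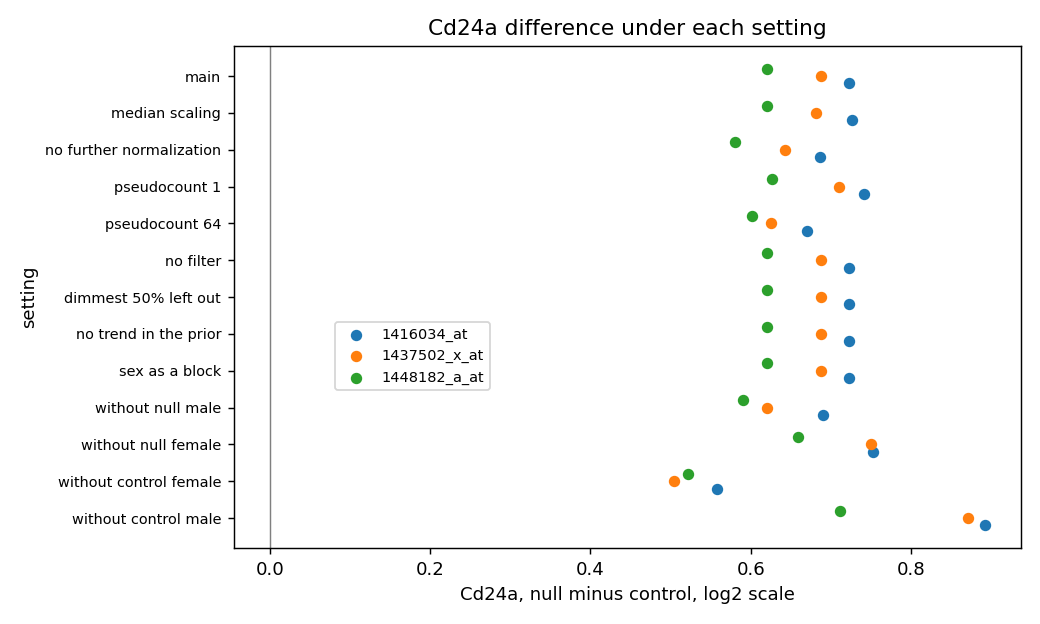
Cd24a difference (x axis, log2 scale) on each of its 3 probe sets under each setting of the processing (y axis). All 36 values other than the main ones lie above 0, between 0.505 and 0.892, but those for the filter, the prior and the block for sex equal the main ones by construction.

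In mouse crypts Cd24 is known as a surface marker of Paneth and enteroendocrine cells as well as of stem cells, and outside the epithelium it is found on B cells and blood cell precursors. Of 8 Paneth genes measured, 6 were higher and 2 lower in null mice, with Mmp7, the protease matrilysin, at 1.22 (SE 0.21, adjusted p of 1 in limma) and the phospholipase Pla2g2a at −3.63 (adjusted p = 0.0277 in limma), the 1 gene of the list that passed. The Paneth list had a median of 0.27, with 4 higher and 2 lower at an unadjusted p under 0.05 in limma. Summed intensities of the Paneth genes were 20090 and 22270 in the null male and female and 22000 and 21720 in the control female and male. Of 9 goblet cell genes 9 were higher, with a median of 0.37, sums (in the same order) of 23470 and 21070 against 17780 and 18450, and 0 of 9 tested passed in limma, with 2 higher at an unadjusted p under 0.05. Among them Agr2 gave 0.62 on its brightest probe set and 0.27, with overlapping groups, on the other, and Spink4 gave 0.60. No Paneth or goblet gene was under the dim limit throughout. Of 18 enteroendocrine genes 11 were higher, among them Ghrl at 1.70, and 7 lower, among them Nts at −1.61 (each with an adjusted p of 1 in limma). Of the 15 enteroendocrine genes tested, 2 were higher and 1 lower at an unadjusted p under 0.05 in limma. Both control values of Ghrl (6.57 and 27.7) and the null male value of Nts (32.4) lie under the dim limit. The list had a median of 0.24, which was −0.011 without the control female, and sums of 2714 and 2992 against 2357 and 3817, and the transcription factor genes Insm1 and Isl1 did not exceed the dim limit on any array. All 3 red blood cell genes measured were higher, with a median of 0.27 and sums of 215.5 and 159.9 against 152.2 and 148.2. The part of these cell types in the Cd24a values was not tested.

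Over the 9 member genes, each represented by its brightest probe set, 7 were higher and 2 lower in null mice, with a median difference of 0.08, which was −0.011 within males and 0.04 within females. Over all 12393 named genes 51.1% were higher and the median was 0.0065. Without Cd24a the member median was 0.08 over 8 genes, and it was −0.014 within males and −0.060 within females. The median of the 9 was 0.201 without the control male and 0.0434 to 0.0937 without any other 1 animal.

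For several members the difference between the sexes was larger in size than that between the genotypes, though the 2 were not tested against each other. This comparison was chosen after their values were seen. Of the 13 tested member probe sets, 8 did not overlap between the 2 female and the 2 male arrays, against 40.2% of all probe sets tested. Both Cd44 probe sets, Lgr5 and Myc were higher in the females (4 of 13, against 22.3% of all), and Ephb3, 2 Ascl2 probe sets and Axin2 1436845_at were higher in the males (4 of 13, against 17.9%). Female minus male was 0.48 (SE 0.26) for Lgr5, 0.39 (SE 0.22) and 0.98 (SE 0.32) for Cd44 and −0.48 (SE 0.25) for Ephb3 in a limma fit with genotype as a block. None of the 13 passed over all probe sets (smallest adjusted p = 0.366 in limma, for Cd44 1452483_a_at, the 1 member at an unadjusted p under 0.05), whereas 84 of 15838 did (0.53%). The animals' numbers in the labels are adjacent within each sex, so sex and whatever the numbering reflects cannot be told apart. The control female also carried Cre and no minus allele, and the control male the minus allele and no Cre. The block for genotype holds both as 1 control group. Among the controls, sex therefore cannot be told apart from Cre and the minus allele.

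Beyond the members, 17 of 22 further crypt base stem cell genes were measured, of which 7 were higher and 10 lower, with a median of −0.015, and 0 of 15 tested passed in limma. At an unadjusted p under 0.05 were 2 higher and 1 lower. Msi1, the RNA-binding protein Musashi, read 252 and 227 in null mice versus 131 and 142 in control mice. It differed by 0.77 (SE 0.21, adjusted p of 1 in limma). Its second probe set went the other way (−0.32, not tested) but was under the dim limit throughout. Aldh1b1, a mitochondrial aldehyde dehydrogenase, read 764 and 525 against 995 and 911, a difference of −0.56 (SE 0.21). Hopx, a homeodomain protein linked to slowly cycling crypt cells, differed by 0.45 (SE 0.18) and 0.60 (SE 0.19) on its 2 probe sets, also with an adjusted p of 1 in limma.

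Of 19 further Wnt targets 18 were measured, 9 higher and 9 lower, with a median of −0.012, and 0 of 17 tested passed in limma, with 1 higher and 1 lower at an unadjusted p under 0.05. Slc12a2, the basolateral sodium, potassium and chloride cotransporter of crypt cells, read 955 and 1122 in null mice versus 670 (669.99 before rounding) and 681 in control mice. The groups did not overlap. Its difference was 0.64 (SE 0.15, adjusted p of 1 in limma), with 0.58 and, with overlapping groups, 0.36 on its other probe sets. Plaur, the urokinase receptor, read 21.0 and 25.2 against 62.0 and 43.4, a difference of −0.76 (SE 0.26), with both null values under the dim limit.

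The probe sets whose centred levels over the 4 arrays were most like those of Cd24a 1448182_a_at, by root mean square difference, were those of Rnf112 (0.0263), Hopx (0.0294), Cacng4 (0.0309), Tecpr1 (0.0342) and Slc12a2 (0.0472). Over 4 arrays, such likeness only describes the order and spacing of the same 4 animals. Hopx and Slc12a2 are the 2 of these that also stand in the lists of crypt genes. Rnf112 exceeded the dim limit in the null female alone (42.3), and both control values of Tecpr1 (21.6 and 27.8) lie under it.

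Among the parts of the Wnt pathway itself, the ligand list (Wnt and R-spondin genes with the secretion factors Porcn and Wls) had 15 of 23 measured genes higher and 8 lower, with a median of 0.08, and 8 genes under the dim limit on every array. None of its 13 tested genes passed in limma, with 0 higher and 1 lower at an unadjusted p under 0.05. That gene was Wnt9b, at 28.4 and 22.9 in null mice versus 49.7 and 54.6 in control mice (difference −0.69, SE 0.26), with both null values under the dim limit. Wnt11 read 137 and 65.3 against 56.5 and 55.5, a difference of 0.67 (SE 0.37) carried mainly by the null male, with 1.23 within males and 0.11 within females.

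Receptors and the genes of their turnover split 8 higher and 8 lower of 16 measured, with a median of −0.018. The co-receptor gene Lrp6 differed by −0.44 (SE 0.37) on its brightest probe set and by −0.16 on the other, with the null male the lowest of the 4 arrays on both. Fzd1, a Frizzled receptor, differed by −0.28 (SE 0.25). Secreted and membrane inhibitors split 7 and 6 of 13 measured (median 0.018), of which 7 were under the dim limit throughout, with Dkk1 at 0.30 (SE 0.29) and Sfrp4 at 0.15 (SE 0.25). In both lists 0 genes passed in limma and 0 had an unadjusted p under 0.05.

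The destruction complex with Dishevelled split 7 and 7 of 14 measured, all 14 tested, with a median of −0.0027 and differences from −0.33 to 0.31. Apc, the tumour suppressor scaffold of the complex, gave −0.23 (SE 0.20) on its brightest probe set but 0.46 and 0.19 on its other 2, so its probe sets disagreed in sign. Btrc, which marks beta-catenin for degradation, gave −0.33 (SE 0.27) on the brighter, where both null values (30.7 and 25.3) lie under the dim limit, and 0.29 on a dim probe set that was not tested. The TCF complex split 6 and 7 of 13 measured, with a median of −0.020. Tcf7l2, the main TCF factor of gut epithelium, gave 0.51 (SE 0.29) on its brightest probe set and −0.05 (SE 0.23) on the other one tested, with the null female highest on the first. The corepressor gene Tle1 gave −0.27 and −0.30. None of the 14 and none of the 10 tested genes of these lists passed in limma, and 0 of each had an unadjusted p under 0.05.

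Partners of CD44 and CD24 had 7 of 10 measured genes higher (median 0.07, 0 of 7 tested past the threshold in limma and 0 at an unadjusted p under 0.05), with the hyaluronan synthase Has1 at 0.23 and Selplg, a selectin ligand, at 0.21. Of the remaining marker lists, tuft cells had a median of 0.22 (4 of 6 higher), T cells −0.38 (1 of 9), myeloid cells 0.05 (5 of 8) and pancreatic acinar cells 0.13 (4 of 5), with 0 members past the threshold. Proliferation genes had 14 of 21 higher, with a median of 0.11, which was 0.016 within males and 0.17 within females and turned to −0.15 without the null female. Plk1, a mitotic kinase, differed by 0.45 (SE 0.22) and Cdk1 by 0.28 (SE 0.21), and 0 of 20 tested passed in limma, with 0 at an unadjusted p under 0.05. On the same arrays 8 of 10 absorptive enterocyte genes were lower, with a median of −0.15 and none past the threshold in limma (1 higher and 3 lower at an unadjusted p under 0.05), among them Krt20 at −0.36 (SE 0.12) and Anpep at −0.39 (SE 0.14).

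**Figure D5:**
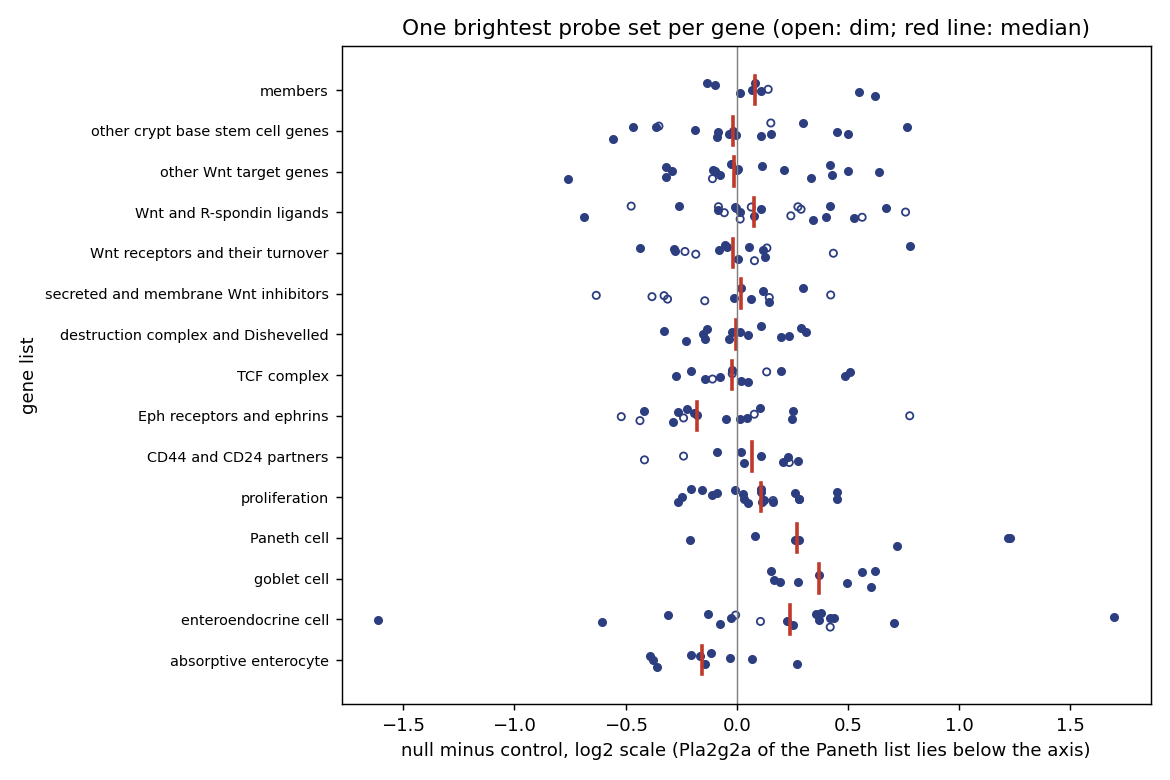
Null minus control difference (x axis, log2 scale) of each measured gene in 15 lists (y axis), 1 brightest probe set per gene, filled where tested and open where dim, with a red line at the list median. Wnt pathway lists centre between −0.020 and 0.08, the members at 0.08 and the goblet cell list at 0.37; Pla2g2a lies off the axis at −3.63.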

How the data were processed

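Per the labels, total RNA was extracted with an RNeasy kit, labelled with biotin and hybridised to 1 Affymetrix array per mouse. The authors deposited 1 linear intensity per probe set and array. How probes were summarised, corrected and scaled is not given in the sources used here. The deposited intensities hold no detection calls. Precision is limited by the number of arrays. The labels name 4 separate animals, 2 per group.

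Medians of log2(intensity + 16) varied by 0.23 between arrays. Intensities of 22626 probe sets (64 control probe sets left out) were quantile normalized, negative values were replaced by 0, and log2(value + 16) was used. The dimmest 30% by mean were removed. limma 3.58.1 in R 4.3.3 (lmFit, eBayes with an intensity trend, 2 residual and 4.65 prior degrees of freedom) compared null with control without covariates, two-sided, with Benjamini-Hochberg adjustment. The code was tested on simulated data. Within-sex differences have no replicate. Probe sets were named from the platform annotation (20380 with 1 gene, 691 with several, 1555 with none), and 0 symbols differed from the GRCm38.p6 gene table. Lists were summarised by counts and medians, with no test. A gene was represented by its brightest probe set. Genes named from a list were the 2 tested genes with the smallest p and 1 direction in both sexes, and any gene past the threshold. Likeness to the member with the smallest p named 5 probe sets. Hopx was named through that likeness. Genes under the dim limit throughout were named too, after their values were seen. A fit of female against male with genotype as a block was added after the values were seen. The members and lists were chosen with earlier results of these data known. The alternatives changed the normalization, the pseudocount, the filter, the prior, a block for sex and the animals included.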

Additional observations from a re-analysis of the deposited data

Results flagged for a closer look

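For 7 of the 16 member probe sets the null minus control difference had opposite signs in the male and the female pair, against 11868 of 22626 over all probe sets. Each pair holds 1 animal per group, so whether the sexes differ was not tested. The female difference minus the male one was 1.13 for Prom1 (1.11 against −0.016), −0.83 for Axin2 1421341_at (−0.54 against 0.29), 0.771 for Cd44 1452483_a_at (0.65 against −0.12) and −0.651 for Sox9 1451538_at (−0.18 against 0.47). It was −0.577 for Axin2 1436845_at (−0.20 against 0.37), 0.338 for Ascl2 1460514_s_at (0.24 against −0.10) and 0.0507 for Ephb3 (0.04 against −0.011).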

How the results depend on the processing

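No member probe set passed in limma under any of the 12 alternatives run. The 3 Cd24a probe sets stayed above 0 in all 36 values, from 0.505 to 0.892. The filter, the prior and the block for sex cannot change a difference of group means, so those values equal the main ones. As both null arrays lay above both controls on each probe set, leaving out 1 animal could hardly turn the sign. The count of 36 is therefore no check of stability. With all animals included, the smallest adjusted p was 0.11 in limma, from the fit with sex as a block. Over all probe sets, 2 passed, 1 without an intensity trend in the prior, 29 with sex as a block and between 0 and 35 with 1 animal left out (35 without the null male, 10 without the null female, 3 without the control female and 0 without the control male, where 205 had an unadjusted p under 0.05). The median of the member genes ranged from 0.0434 to 0.201 with 1 animal left out, the highest without the control male. Small differences changed sign with the animals included. With 1 animal left out, Lgr5 ranged from −0.164 to 0.379, Ascl2 from −0.0519 to 0.301 on 1432018_at and −0.124 to 0.266 on 1460514_s_at, Axin2 from −0.404 to 0.162 on 1421341_at and −0.22 to 0.391 on 1436845_at, Cd44 from −0.341 to 0.07 on 1423760_at and −0.0342 to 0.943 on 1452483_a_at, Ephb3 from −0.237 to 0.267 and Myc from −0.213 to 0.0162. These ranges leave out the runs in which a probe set was not tested. Those were the run without the null female for Cd44 1452483_a_at, and the runs without the null male and without the control male for Ascl2 1432018_at. On Cd44 1452483_a_at the null male lay at 4.96 on the log2 scale, under the control mean of 5.37. Its range therefore does not show the lowest value that leaving out 1 animal could give. Ephb3 was also −0.0252 without further normalization. List medians moved too: the range was −0.404 to 0.988 for B cells, −0.148 to 0.218 for proliferation, −0.0112 to 0.462 for enteroendocrine cells, −0.131 to 0.152 for crypt base genes, −0.108 to 0.225 for Wnt inhibitors, −0.153 to 0.107 for the TCF complex, −0.179 to 0.436 for pancreatic acinar cells, −0.167 to −0.0599 for Eph receptors and ephrins and 0.294 to 0.361 for goblet cells. The cause of these shifts was not tested. Over all results, list medians included, 320 of 333 values under the other settings and 112 of 165 with 1 animal left out kept their direction and side of the threshold or, where untested, moved by less than 1 SD between replicates. A count of probe sets was held as kept where it was equal or near to the main one. The filter, the prior and the block for sex cannot move a difference or a list median. Much of the 320 was thus fixed in advance and does not measure stability. Where 1 animal is left in a group, it is assumed to vary like the other group. The labels give the 2 groups no shared animal number, and the fit with sex as a block is the one that pairs them. Signal near background limits Sox9, 2 of the 3 Ascl2 probe sets, Axin2 1421341_at and Cd44 1452483_a_at.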
